A study of Sus scrofa with 12 samples.

Results

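MicroRNA genes were followed in left ventricular muscle of pigs with and without chronic ventricular pacing. They were taken by name: every probe set whose gene symbol is MIR with a number, or a LET gene (written MIRLET7 on this array), was kept whatever its signal. The rule gave 161 genes, 7 of them MIRLET7 genes, of the 12362 genes with a probe set of 1 symbol. They carried 175 of the 27558 probe sets of the array. In the 14 genes with 2 probe sets, both gave the same value in every array. LETM1 and LETM2 begin with the same letters but are no microRNA genes and were left out, as was 1 probe set shared by MIR1306 and DGCR8.

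MicroRNAs are short RNAs that guide Argonaute proteins to messenger RNAs and lower their translation or stability. They are made from longer primary transcripts, in which DROSHA and DGCR8 cut out a hairpin that XPO5 exports and DICER1 trims to the mature strand. Many microRNA genes lie inside introns of other genes, their host genes, and others lie in clusters read as a single primary transcript. In heart muscle the MIR1 and MIR133 genes are abundant muscle microRNAs, and MIR208B and MIR499 sit inside myosin heavy chain genes. An array of labelled total RNA reads whatever RNA holds the probed sequence. Whether that was the primary transcript, the hairpin or the mature strand is not given in the sources used here, so the values below are signals of microRNA genes and not amounts of mature microRNA.

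All animals were female pigs aged 13 months. The paced pigs (labelled EXP) had complete atrioventricular block made with an ablation catheter and a pacemaker in VDD mode, in which the ventricle is paced after each sensed atrial beat. The control pigs (labelled CTL) were the sham group, and the labels place a ventricular lead on the right ventricular septum and an atrial lead in the right atrial appendage in all pigs. After 6 months, septum and free wall of the left ventricle were taken, giving 4 groups of 3 arrays: septum paced, septum control, free wall paced and free wall control. In all, 12 pigs took part, 6 in either arm. Septum and free wall are described as paired samples, although an array cannot be tied to an animal from the labels. The main tests between regions and of the difference of pacing effects took all 12 arrays as independent. The p-values below therefore measure only the spread between these arrays. Fits with same-numbered arrays as a block are in the closing section.

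Values are log2 signals normalised by RMA (robust multi-array average) and deposited by the authors. Of 12 cardiomyocyte marker genes, 8 were on the array, and all 8 lay above the 75th percentile of every array. Of 8 erythroid markers, 5 were on the array and 1 lay above the 25th percentile of every array. Free wall paced array 2 stood apart, with a limma array weight of 0.27 where the other arrays had 0.68 to 1.57. On the first principal component of the 161 microRNA genes it lay at 4.55, against -2.66 to 1.66 for the other 11 arrays. For the microRNA genes with the smallest p, differences that use this array are also given without it. In such bulk tissue, fewer cells of a type and less RNA per cell cannot be told apart.

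The first question was how many of these genes gave a signal above the low end of the array. The 25th percentile of an array lay between 2.91 and 3.13 on the log2 scale, and the median microRNA gene lay below it in each array, at 2.32 to 2.58. Of the 161 microRNA genes, 48 (29.8%) were above the 25th percentile in all 12 arrays, where 67.7% of all probe sets and 74.9% of all genes with 1 symbol were. Another 82 (50.9%) were above it in none, against 17.9% of all probe sets, and the remaining 31 were above it in some arrays. Above the median of every array were 18 microRNA genes (11.2%, against 41.6% of probe sets), and above the 75th percentile were 6 (3.73%, against 20.5%). Each array had 60 to 68 of them above its own 25th percentile. A signal below that line is at the dim end of the array and was not read as showing that the RNA was there.

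**Figure D1:**
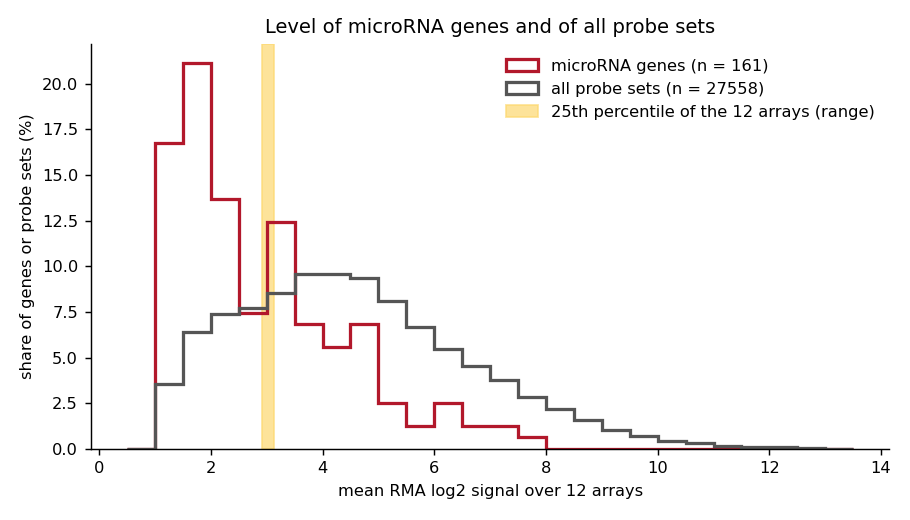
Distribution of the mean RMA log2 signal over the 12 arrays for the 161 microRNA genes and for all 27558 probe sets (vertical axis, share in percent), with the range of the 25th percentile of the 12 arrays (2.91 to 3.13) as a yellow band. The microRNA genes lie mostly below the band, and a tail of them reaches 7.51.

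The 10 genes with the highest mean signal were MIR324 (7.51), MIR181C (7.12), MIR328 (7.04), MIR574 (6.83), MIR210 (6.58), MIR885 (6.36), MIRLET7E (6.17), MIR149 (6.17), MIR105-1 (6.11) and MIR107 (5.66). Probe sets differ in how brightly they bind, so this order is one of signals and not of amounts. None of the 10 belongs to the muscle microRNAs. MIR210, the microRNA known for its induction under low oxygen, stayed between 6.43 and 6.74 over all 12 arrays. MIR328, which has been linked to electrical remodelling of the atrium in dogs, ranged from 6.48 to 7.79.

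The 7 heart and skeletal muscle genes were mostly dim. MIR208B, which sits in the gene of the slow beta-myosin heavy chain, was above the 25th percentile in all 12 arrays, and so was MIR486-1, a microRNA of striated muscle and of red cell precursors. MIR1, MIR133B and MIR499 crossed the line in 7, 8 and 8 of the 12 arrays. MIR133A-1 read 1.19 to 1.62 and MIR206, a microRNA of skeletal muscle, 1.76 to 2.16, below the line in every array. The dim MIR133A-1 signal stood in tissue whose cardiomyocyte markers averaged 11.56 to 11.76 per array.

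**Figure D2:**
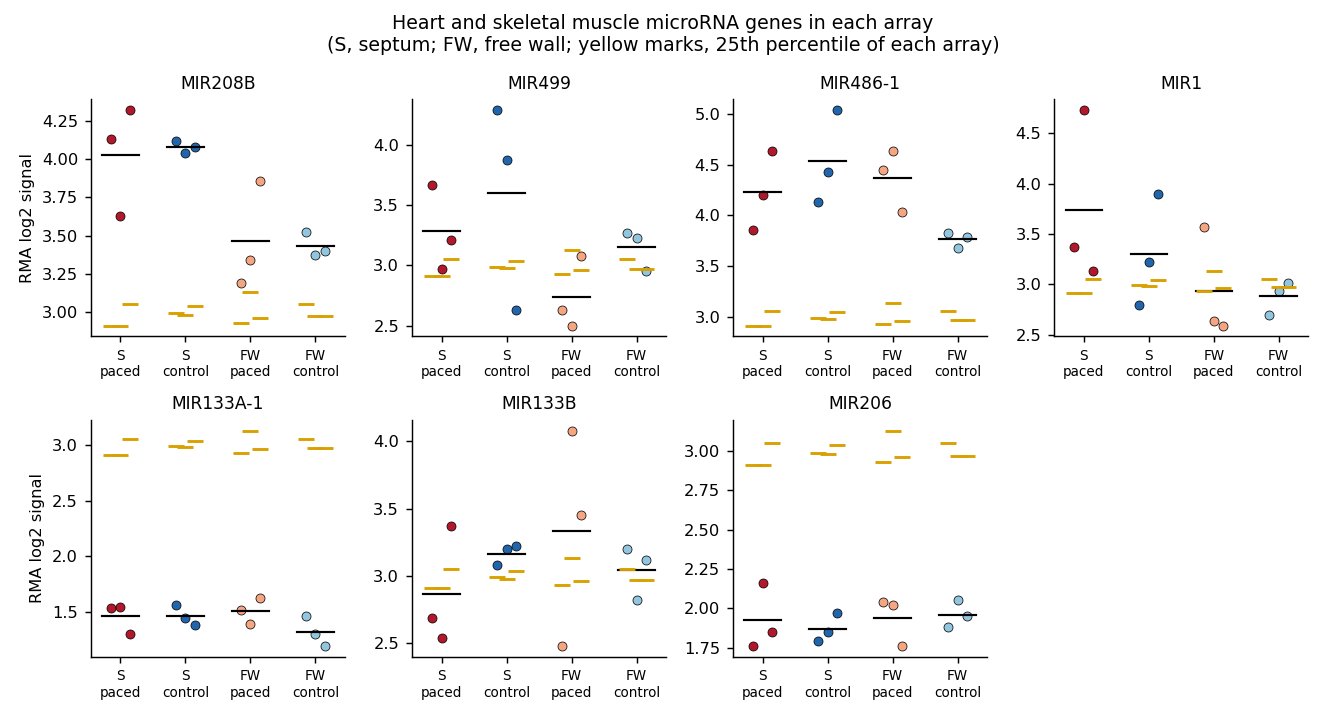
RMA log2 signal (vertical axis) of the 7 heart and skeletal muscle microRNA genes in each array, by group, with black lines for group means and yellow marks for the 25th percentile of the same array. MIR208B is higher in the septum than in the free wall of control pigs with no overlap, and MIR133A-1 and MIR206 lie under the yellow marks throughout.

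Of the 11 vascular genes, 4 were above the 25th percentile in every array and 3 in none. MIR143, a smooth muscle microRNA, read 4.44 to 5.39. Its neighbour MIR145, which works in the same cells, read 1.94 to 3.02 and was above the line in 2 arrays. MIR126, the microRNA of endothelial cells, read 1.42 to 1.94, although the 5 endothelial markers on the array, among them its own host EGFL7 (5.23 to 5.78), were all above the line in every array.

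Of the 12 fibrosis genes, 4 were above the line in every array (MIR29C, MIR30D, MIR214 and MIR199A-1) and 6 in none. The MIR29 family is known to target collagen messages. Its member MIR29C read 3.58 to 5.34, while MIR29A read 1.13 to 1.45. MIR21, which is raised in cardiac fibroblasts of failing mouse hearts, read 1.98 to 2.84 and was below the line in all 12 arrays. Fibroblast markers were bright here: all 4 on the array were above the 75th percentile in every array.

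All 5 genes of the blood and inflammation list were below the line in every array: MIR142, MIR146A, MIR146B, MIR155 and the red cell microRNA MIR451 (1.10 to 1.78). Of the 5 oxygen and energy genes, MIR210, MIR107 and MIR378-1 were above it in every array and both MIR103 genes in none. MIR378-1, which lies in PPARGC1B, a coactivator of mitochondrial gene expression, read 5.08 to 6.00. Of the 23 growth and cell cycle genes, 6 were above the line in every array and 9 in none. This list holds the MIR15, MIR16, MIR195 and MIR497 family, which restrains the cell cycle, and the MIRLET7 genes, of which MIRLET7E and MIRLET7A-1 were above it in every array.

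Genes of a single cluster often differed in signal. With neighbours within 10 kilobases of each other counted together, 68 microRNA genes fell into 28 clusters of up to 6 genes. In 3 clusters every gene was above the 25th percentile in all arrays (MIR181C with MIR181D, MIR199A-1 with MIR214, and MIR105-1 with MIR105-2), and in 5 none was above it in any array. In 6 clusters some genes were above it in every array and others in none. In the cluster of MIR17, MIR18A, MIR19A, MIR20A, MIR19B-1 and MIR92A-1, known for driving cell growth, MIR92A-1 read 3.42 to 4.28 and the other 5 were below the line throughout. MIR20A, with 0.88 to 1.26, was among the dimmest of the 161 genes.

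Host genes were set beside the microRNA genes they span, on either strand. A RefSeq gene spans 93 of the 161 microRNA genes, and for 60 of them a spanning gene was on the array, 52 genes in 61 pairs. The spanning gene was above the 25th percentile in every array in 52 pairs, and in 36 of these the microRNA gene was not. In 16 pairs both were above the line, in 6 neither was, and in 3 only the microRNA gene was (MIR328 in ELMO3, MIR615 in HOXC5 and MIR708 in TENM4). MYH7, the host of MIR208B, read 12.40 to 12.59, near the top of the array, where MIR208B read 3.19 to 4.32. HUWE1, which spans both MIR98 and MIRLET7F-1, was above the line in every array, MIR98 in 11 arrays and MIRLET7F-1 in none. Of the 60 microRNA genes with such a host on the array 19 were above the line in every array, and of the remaining microRNA genes 29 were.

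**Figure D3:**
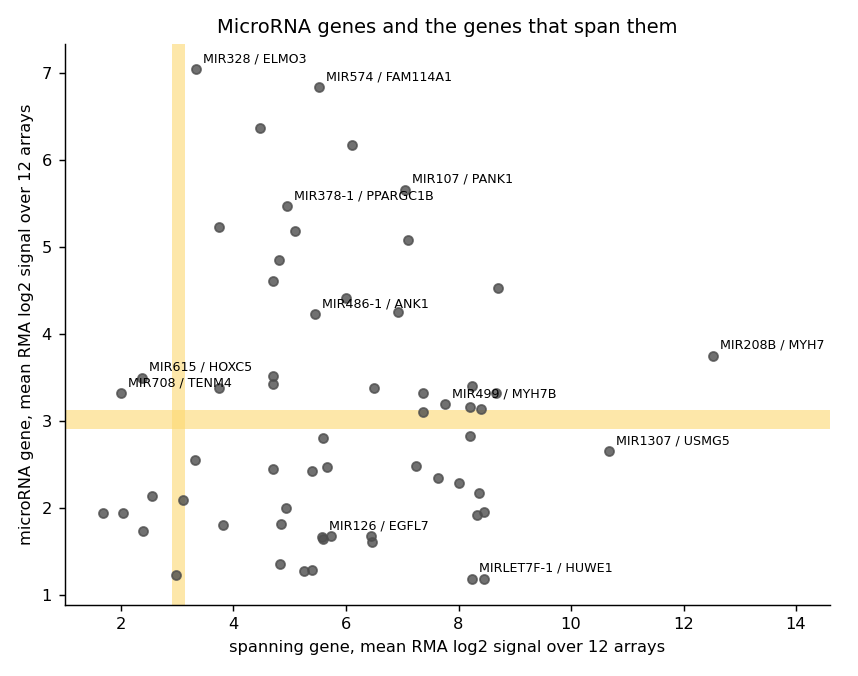
Mean RMA log2 signal over 12 arrays of 61 pairs, with the spanning gene on the horizontal axis and the microRNA gene on the vertical axis. Yellow bands give the range of the arrays' 25th percentile (2.91 to 3.13). Most points lie right of the vertical band and many of them under the horizontal one, and MIR208B lies far right at MYH7.

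Among probe sets of like brightness, the microRNA genes had the larger spread between arrays of a group, except at the dim end. The median standard deviation (SD) within a group was 0.23 for microRNA genes and 0.21 for all probe sets. Below the 25th percentile of mean signal, the 95 microRNA genes had a median SD of 0.19, against 0.21 for all probe sets of that range. From there to the median the 39 microRNA genes had 0.30 against 0.24, and from the median to the 75th percentile the 18 had 0.33 against 0.21. Above the 75th percentile, the 9 microRNA genes had 0.27 against 0.16.

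Pacing in the free wall was the first comparison between groups, and no microRNA gene passed it. The limma fit called 0 of 161 at a Benjamini-Hochberg adjusted p under 0.05, and 0.00363% of all probe sets (1 probe set). The smallest adjusted p among them was 0.873. At an unadjusted p under 0.05 there were 7 microRNA genes, 3 higher and 4 lower, which is 4.35% of them against 4.69% of all probe sets (1.94% higher and 2.74% lower). Dropping single free wall arrays moved this count to 11 (paced array 2), 13 (paced array 3) and 12 (control array 1). Over all 27558 probe sets the count was 1292 with all arrays, and 1871, 1513 and 1139 in the same order. The 3 paced and the 3 control arrays did not overlap for 14 microRNA genes (8.70%), 6 higher and 8 lower, where 8.29% of all probe sets did not overlap (3.59% higher and 4.7% lower). The differences ran from -0.65 to 0.61 on the log2 scale, with a median of -0.02. For 147 of the 161 the 95% interval of the difference lay wholly within a 2-fold change. These are intervals of signals. Of the 161, 82 were above the 25th percentile in no array, where a narrow interval does not bound a change in the RNA. The same holds for such counts in the other comparisons.

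MIR30B, of a family that in rodent hearts restrains the matrix factor CTGF, had the smallest p. It read 1.63, 1.71 and 1.66 in paced free wall, against 2.60, 2.04 and 2.32 in control free wall. The groups did not overlap, but all values were below the 25th percentile of their arrays. The difference was -0.65 (SE 0.17, limma adjusted p 0.873), and -0.68 without free wall paced array 2. In the septum, MIR30B read 1.88, 2.10 and 1.83 in paced pigs and 1.96, 1.93 and 2.46 in control pigs, which overlap.

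MIR195, the cell cycle microRNA whose excess halts heart muscle cell division in mice, was above the 25th percentile in every array. It read 3.95, 4.15 and 4.03 in paced free wall, against 4.45, 4.45 and 4.38 in control free wall. The paced arrays were all lower, by 0.38 on average (log2 difference -0.38, SE 0.12, adjusted p 0.998 by limma), and the difference was -0.44 without free wall paced array 2. In the septum it read 4.19, 4.38 and 4.14 in paced pigs and 4.16, 4.49 and 4.30 in control pigs, with overlap.

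MIR486-1 read 4.45, 4.64 and 4.03 in paced free wall, against 3.83, 3.68 and 3.79 in control free wall. Every paced array was above every control array, a difference of 0.61 (SE 0.25, limma adjusted p 0.998) that came to 0.47 without free wall paced array 2. Its host ANK1, a membrane anchor of red cells and muscle, differed by 0.18 (SE 0.11) in the same direction. The mean of the 5 erythroid markers on the array was 3.03 to 3.43 in paced free wall and 2.98 to 3.10 in control free wall, and its highest value was that of free wall paced array 2. The part of red cell RNA in the MIR486-1 values was not tested.

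The other microRNA genes with the smallest p in the free wall were of mixed kind. MIR361 was higher in paced pigs by 0.38 (SE 0.13) and MIR145 by 0.49 (SE 0.18), while MIR199B was lower by a log2 difference of -0.51 (SE 0.19) and MIR885 of -0.53 (SE 0.20). None passed (limma adjusted p 0.998 for each). The differences were 0.39 for MIR361, 0.53 for MIR145 and -0.58 for MIR199B with free wall paced array 2 left out. MIR361 and MIR199B lay under the 25th percentile in every array, and MIR145 in most arrays. MIR885 was bright: it read 6.31, 6.29 and 5.87 in paced free wall, against 6.70, 6.69 and 6.66 in control free wall, with no overlap, and its difference was -0.59 without free wall paced array 2. Beside the MIR145 difference, the 3 smooth muscle markers on the array averaged 5.79 to 6.21 in paced free wall and 5.43 to 5.82 in control free wall, and their part in it was not tested.

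Pacing in the septum gave a like picture, mostly with other genes. MIR1839 was among the 5 lower genes of smallest p in both regions. Its difference was -0.41 in the free wall (-0.17 without free wall paced array 2) and -0.39 in the septum. Limma called 0 of 161 microRNA genes and 0.00726% of all probe sets, and the smallest adjusted p of a microRNA gene was 0.997. Unadjusted p was under 0.05 for 5 microRNA genes, 3 higher and 2 lower (3.11%, against 4.44% of all probe sets, 2.2% higher and 2.24% lower). Leaving out septum paced array 1 gave 2 such genes, septum paced array 3 gave 14, free wall paced array 2 gave 10 and free wall control array 1 gave 9. Over all 27558 probe sets the count was 1223 with all arrays, and 876, 1714, 1693 and 1241 in the same order. Paced and control arrays did not overlap for 13 microRNA genes (8.07%), 7 higher and 6 lower, against 10.3% of all probe sets (5.37% higher and 4.9% lower). The differences ran from -0.55 to 0.46 with a median of 0.01, and for 143 genes the 95% interval lay within a 2-fold change.

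MIR23A, which with MIR27A and MIR24-1 forms a cluster active in vessels and muscle, had the most negative difference. It read 3.71, 2.76 and 3.43 in paced septum, against 3.66, 3.86 and 4.04 in control septum, so the groups overlapped. The difference was -0.55 (SE 0.21, limma adjusted p 0.997), and -0.28 without septum paced array 2, which held the lowest value. MIR27A and MIR24-1 were not among the genes with the smallest p there.

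MIR222, known for effects on growth of vascular smooth muscle and endothelium, read 3.13, 3.57 and 3.31 in paced septum, against 4.07, 3.78 and 3.48 in control septum. The groups overlapped, with a difference of -0.44 (SE 0.16, limma adjusted p 0.997) that came to -0.29 without septum control array 1. The 5 genes with positive differences and the smallest p were MIR224, MIR125B-1, MIR205, MIR106A and MIR676-1, at 0.24 to 0.39. All 5 were below the 25th percentile in every array. The difference of MIR205 was 0.36, and 0.23 without septum control array 2, and that of MIR676-1 was 0.32, and 0.18 without septum paced array 1.

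With the septum and free wall arrays of the same treatment and number averaged first, limma again called 0 of 161 microRNA genes, against 0.00363% of all probe sets. Whether same-numbered arrays come from the same pig is not known, so the averages join arrays by number alone. Where an array was left out, the average of its number was the other region's array alone. Here 10 had an unadjusted p under 0.05, 2 higher and 8 lower (6.21%, against 5.24% of all probe sets, 2.4% higher and 2.84% lower). There were 5 without septum paced array 2 and 6 without free wall paced array 1, where 994 and 1445 of all 27558 probe sets were under 0.05. The 3 paced and 3 control averages did not overlap for 14 (8.70%, against 9.94% of all probe sets, 4.58% higher and 5.36% lower), 4 higher and 10 lower. For 159 of the 161 the 95% interval lay within a 2-fold change, the exceptions being MIR181B-2 and MIR421.

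The smallest p values of the averaged comparison were again those of dim genes, MIR30B (-0.42, SE 0.12) and MIR1839 (-0.40, SE 0.13), both with a limma adjusted p of 0.907. They were -0.35 and -0.32 with free wall paced array 2 left out, where septum paced array 2 alone stood for that average. Of the brighter genes, MIR29C had a difference of -0.45 (SE 0.18). MIR29C read 4.89, 4.68 and 4.66 in paced septum, against 5.34, 5.19 and 5.15 in control septum, with no overlap. In the free wall it read 4.69, 3.58 and 4.74 in paced pigs and 4.98, 4.84 and 4.41 in control pigs, with overlap. Without free wall paced array 2 the averaged difference was -0.26, again with septum paced array 2 alone as that average. Of the 12 fibrosis genes, 10 had a negative averaged difference and 2 a positive one (median -0.14, against -0.005 over all probe sets), with 0 called. Within each region alone, 8 of the 12 had a negative pacing difference. The mean of the 4 fibroblast markers ran from 9.04 to 9.12 in paced septum, 8.21 to 9.26 in control septum, 9.16 to 9.31 in paced free wall and 8.13 to 9.28 in control free wall, and its part in these values was not tested.

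**Figure D4:**
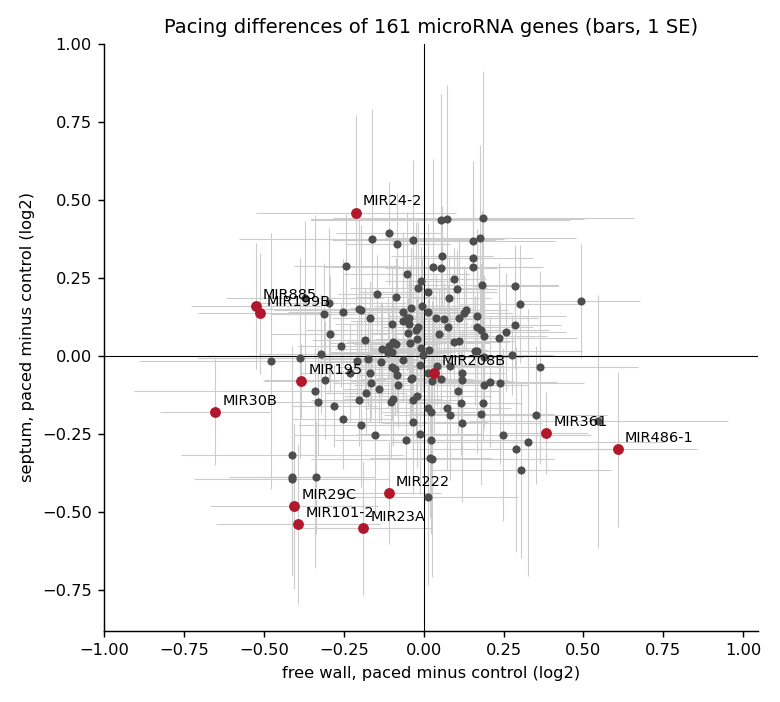
Pacing difference (paced minus control, log2) of each of the 161 microRNA genes in the free wall (horizontal axis) and in the septum (vertical axis), with bars of 1 SE. Named genes are drawn in red. The points gather around 0 in both directions, MIR486-1 lies to the right at 0.61 and below 0, and MIR30B lies furthest left at -0.65.

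The myosin microRNAs showed no detectable difference with pacing. MIR208B differed by 0.03 (SE 0.19; 0.095 without free wall paced array 2) in the free wall and by -0.05 (SE 0.19) in the septum, and MYH7 by -0.05 and -0.02 (SE 0.09 each). MIR499 differed by -0.41 in the free wall and -0.32 in the septum (SE 0.35 each). With these standard errors, a change of MIR499 of the size seen could not be told from the spread between arrays.

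Whether pacing acted differently in the septum and the free wall was tested as the difference of both pacing effects, septum minus free wall. Limma called 0 of 161 microRNA genes and 0% of all probe sets, and unadjusted p was under 0.05 for 5, 3 positive and 2 negative (3.11%, against 3.24% of all probe sets, 1.68% positive and 1.55% negative). Leaving out 1 array gave 2 (septum paced array 1), 3 (free wall paced array 3) or 8 (septum paced array 3, and likewise free wall paced array 1). Over all 27558 probe sets the count was 892 with all arrays, and 674, 1169, 1403 and 1268 in the same order. For 121 of the 161 the 95% interval lay within a 2-fold difference of effects, fewer than in the single comparisons. MIR361 had the smallest p, with -0.63 (SE 0.19, limma adjusted p 0.999), and the same value without free wall paced array 2. MIR361 read 1.48, 1.27 and 1.63 in paced septum, 1.86, 1.70 and 1.56 in control septum, 1.92, 1.96 and 2.01 in paced free wall and 1.67, 1.39 and 1.68 in control free wall. Its paced free wall arrays were thus the 3 highest of the 12, all still below the 25th percentile.

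MIR486-1 had the most negative difference of effects, at -0.91 (SE 0.35, limma adjusted p 0.999), and -0.77 without free wall paced array 2. In the septum it read 3.86, 4.20 and 4.64 in paced pigs, against 4.13, 4.43 and 5.04 in control pigs, with overlap and a difference of -0.30 (SE 0.25). That value moved to -0.11 when septum paced array 1 was left out, to -0.50 for septum paced array 3 or for septum control array 1, and to -0.05 for septum control array 3. MIR885 (0.69, SE 0.29) and MIR199B (0.65, SE 0.28) had the most positive differences with an unadjusted p under 0.05. These were 0.75 and 0.72 with free wall paced array 2 left out.

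Septum and free wall were compared within each treatment. In paced pigs limma called 0 of 161 microRNA genes and 0% of all probe sets, with a smallest adjusted p among the microRNA genes of 0.554. Unadjusted p was under 0.05 for 9 microRNA genes, 4 higher and 5 lower in septum (5.59%, against 6.06% of all probe sets, 3.49% higher and 2.57% lower). Septum and free wall arrays did not overlap for 10 (6.21%, against 9.39% of all probe sets, 5.48% higher and 3.9% lower), 3 higher and 7 lower. The differences ran from -0.60 to 0.97. MIR361 had the smallest p, at -0.50 (SE 0.13) with no overlap, but at signals below the 25th percentile. Without free wall paced array 2 its difference was -0.51.

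MIR24-2, MIR27B and MIR23B form a cluster inside C10H9orf3, and their microRNAs are known from vessel growth. MIR24-2 read 4.02, 4.15 and 4.04 in paced septum, against 2.95, 3.01 and 3.33 in paced free wall. The groups did not overlap, with a difference of 0.97 (SE 0.31, limma adjusted p 0.673), and 0.93 without free wall paced array 2. The 0.97 was the largest in size of any microRNA gene in the 6 comparisons. The paced free wall values lay near the 25th percentile of their arrays (2.93, 3.13 and 2.96), with array 2 below it. MIR24-2 was above that line in 10 of the 12 arrays. In control pigs MIR24-2 read 4.25, 3.41 and 3.17 in septum and 3.96, 2.65 and 3.32 in free wall, which overlap (0.30, SE 0.31).

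MIR27B read 5.32, 4.95 and 5.12 in paced septum, against 3.83, 3.97 and 4.95 in paced free wall, a difference of 0.88 (SE 0.34, limma adjusted p 0.761) in which free wall array 3 reached the lowest septum array. It was 0.74 with free wall paced array 2 left out. In control pigs it read 5.33, 4.59 and 4.61 in septum and 4.89, 4.12 and 3.65 in free wall (0.62, SE 0.34). Leaving out single control arrays moved that value between 0.34 and 0.96, the lowest without free wall control array 3 and the highest without free wall control array 1. MIR23B had positive but small differences beside its error, 0.42 in paced and 0.31 in control pigs (SE 0.35 each). The spanning gene C10H9orf3 differed by 0.20 in paced and 0.19 in control pigs (SE 0.14 each), in the same direction.

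**Figure D5:**
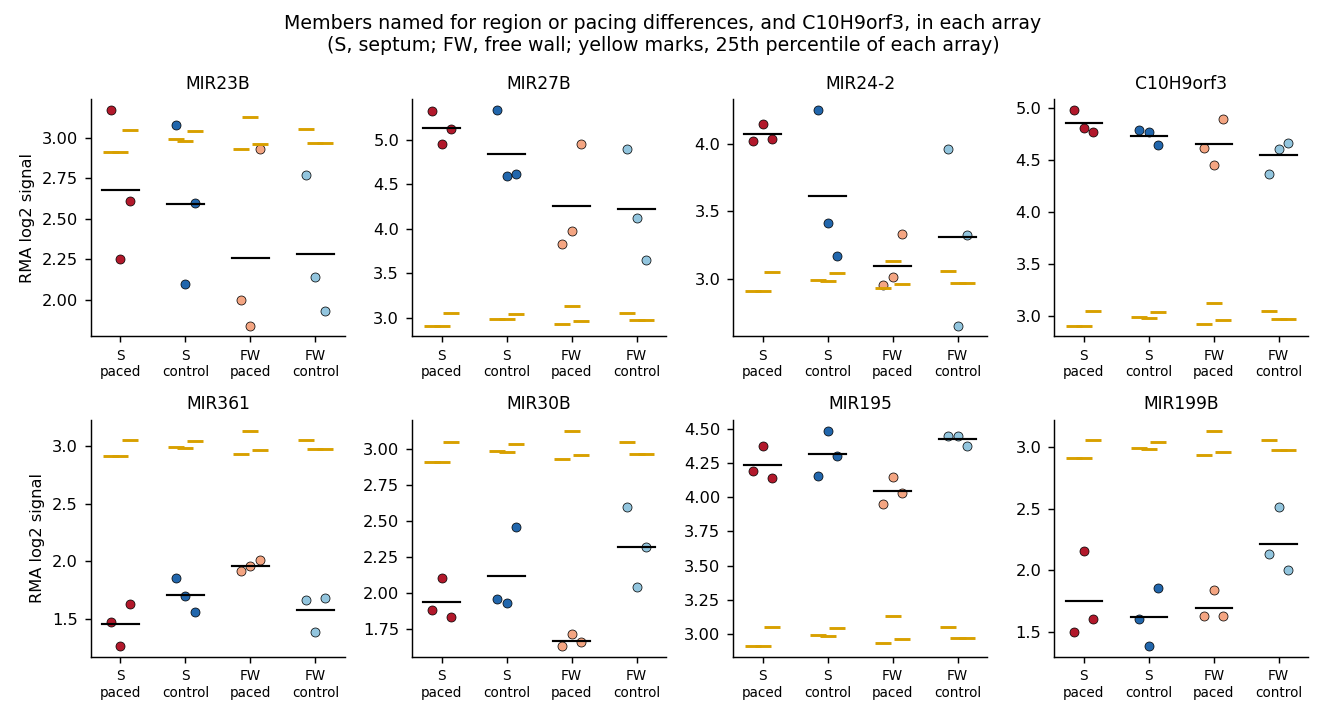
RMA log2 signal (vertical axis) in each array, by group, of MIR23B, MIR27B and MIR24-2, of C10H9orf3, which spans them, and of MIR361, MIR30B, MIR195 and MIR199B. Black lines are group means and yellow marks the 25th percentile of the same array. The paced septum arrays of MIR24-2 (4.02 to 4.15) lie above its paced free wall arrays (2.95 to 3.33), while MIR361, MIR30B and MIR199B lie under the yellow marks.

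In control pigs limma called 0 of 161 microRNA genes between septum and free wall, and 0% of all probe sets. Unadjusted p was under 0.05 for 5, 3 higher and 2 lower in septum (3.11%, against 4.12% of all probe sets, 1.89% higher and 2.23% lower), and for 9 without free wall control array 1. Over all 27558 probe sets the count was 1136, and 1235 without that array. Septum and free wall arrays did not overlap for 15 microRNA genes (9.32%, against 12.8% of all probe sets, 6.41% higher and 6.36% lower), 5 higher and 10 lower. The differences ran from -0.59 to 0.77 with a median of -0.05, and the smallest adjusted p was 0.995.

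MIR208B had the smallest p in control pigs. It read 4.12, 4.04 and 4.08 in control septum, against 3.52, 3.37 and 3.40 in control free wall. The septum arrays were all higher, by 0.65 (SE 0.19, 95% interval 0.23 to 1.07, limma adjusted p 0.995). In paced pigs it read 4.13, 3.63 and 4.32 in septum and 3.19, 3.34 and 3.86 in free wall, with a difference of 0.56 (SE 0.19, limma adjusted p 0.706) and overlap of the arrays numbered 2 and 3. Its host MYH7 differed by 0.10 in paced and 0.08 in control pigs (SE 0.09 each), at a signal near the top of the array. Without free wall paced array 2 the difference in paced pigs was 0.50.

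MIR486-1 was also higher in the septum of control pigs, by 0.77 (SE 0.25, 95% interval 0.23 to 1.31, limma adjusted p 0.995). The values were those given above, 4.13 to 5.04 in control septum and 3.68 to 3.83 in control free wall, without overlap. In paced pigs its regional difference was -0.14 (SE 0.25) with overlapping arrays, and -0.0067 without free wall paced array 2. The erythroid marker mean ran from 2.97 to 3.16 in control septum and from 2.98 to 3.10 in control free wall, which overlap, and ANK1 differed by 0.21 (SE 0.11).

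Of the other genes lower in the septum of control pigs, MIR199B differed by -0.59 (SE 0.19) and MIR885 by -0.46 (SE 0.20). MIR885 read 6.10, 6.21 and 6.36 in control septum, against 6.70, 6.69 and 6.66 in control free wall, a bright gene without overlap. MIR29C, whose regional difference was 0.48 (SE 0.26), did not overlap either, and the difference was 0.32 without free wall control array 3. Within the lists, 6 of the 7 muscle genes had a positive regional difference in control pigs (median 0.43), and 20 of the 23 growth and cell cycle genes a negative one (median -0.11, against 0.00 over all probe sets). In paced pigs 3 of the 7 muscle genes had a positive regional difference and 15 of the 23 growth and cell cycle genes a negative one. Over all 161 microRNA genes, 66 were positive and 91 negative in control pigs, and 79 and 79 in paced pigs. In both lists 0 genes were called in either treatment, and several members share a cluster.

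The genes that span microRNA genes were not called either: 0 of 52 in each of the 6 comparisons. At an unadjusted p under 0.05 there were 3 for pacing in the free wall (4.69% of all probe sets) and 3 in the septum (4.44%). There were 5 with regions averaged (5.24%) and 0 for the difference of effects (3.24%). Between regions there were 3 in paced pigs (6.06%) and 2 in control pigs (4.12%). Differences of the spanning genes were smaller in size than those of the microRNA genes they span. The median size was 0.09 against 0.16 for pacing in the free wall and 0.10 against 0.19 between regions in control pigs. With regions averaged the gap was narrower, at 0.095 against 0.11. The microRNA gene had the higher mean signal in 11 of the 61 pairs, and the part of signal level in these sizes was not tested. The sign was the same in 22 of 61 pairs for pacing in the free wall, 34 in the septum and 37 with regions averaged. It was the same in 28 for the difference of effects, and in 34 and 36 between regions in paced and control pigs.

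TANGO2, which spans MIR185, had the smallest p of these genes for pacing in the free wall. It read 4.58, 4.66 and 4.74 in paced free wall, against 5.56, 5.22 and 5.37 in control free wall. The groups did not overlap (-0.72, SE 0.16, limma adjusted p 0.682). MIR185 itself read 4.75, 5.36 and 5.06 in paced free wall and 5.58, 5.29 and 5.29 in control free wall, with overlap and a difference of -0.33 (SE 0.17). PANK1, an enzyme of coenzyme A synthesis that spans MIR107, differed by -0.52 (SE 0.16) in the free wall, where MIR107 differed by 0.01 (SE 0.28).

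The genes that make and load microRNAs were also described. Of 32 listed, 16 were on the array, 15 of them above the 25th percentile of every array and 8 above the 75th. Limma called 0 of the 16 in each of the 6 comparisons, and 3 values had an unadjusted p under 0.05. SND1 had it between regions in paced pigs (1 of 16, against 6.06% of all probe sets). LIN28A had it for pacing in the free wall (against 4.69%) and ADARB1 between regions in control pigs (against 4.12%). In the other comparisons 0 of the 16 had it, against 3.24% to 5.24% of all probe sets. The smallest p was that of SND1, a nuclease associated with silencing complexes, between regions in paced pigs (0.35 higher in septum, SE 0.11, limma adjusted p 0.658). XPO5, the exporter of hairpins, had a difference of pacing effects of 0.31. AGO4, an Argonaute protein, had an averaged pacing difference of -0.30. The mean of the list lay between 6.26 and 6.47 in all 12 arrays.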

How the data were processed

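Biotin-labelled total RNA of 12 left ventricle samples was read on Affymetrix arrays. The authors deposited log2 values. The submitters' processing notes name RMA and Affymetrix Expression Console 1.4. RMA corrects background, equalises the distribution of all arrays and summarises probes, so a shift shared by all genes would not be seen. The array's build is not given in the sources used here. The 3 arrays per group limit the precision, and there is no count depth. Symbols came from the platform annotation and were unchanged in RefSeq for all 161 genes. The RefSeq gene table (assembly Sscrofa11.1) also gave spanning and neighbouring genes, with no strand, so the planned restriction of hosts to the same strand could not be applied.

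A gene was taken by its probe set with the highest mean, with no filter on level. The 4 means were estimated with limma 3.58.1 (R 4.3.3) from all 12 arrays (8 residual and 3.77 prior degrees of freedom; 4 and 3.93 for the averages), two-sided, with p adjusted by Benjamini-Hochberg over all 27558 probe sets. The code was tested on simulated data. The deviations of same-numbered septum and free wall arrays from their group means correlated at 0.08, -0.15 and -0.17 for paced arrays, against 0.25, 0.19 and 0.18 for control arrays. Differently numbered paced arrays correlated more (0.36, 0.36 and 0.44 for septum 1 with free wall 3, 2 with 1 and 3 with 2). Paced and control arrays, which come from different pigs, also reached 0.19 (free wall paced 2 with free wall control 1). So did septum paced 3 with septum control 3. This check therefore cannot settle the pairing in either treatment. The fits with the number as a block, which also block the paced arrays, are in the closing section. Any pairing used rests on the numbers in the labels alone.

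Named were MIR208B and MIR486-1, members of 6 role lists, the 10 highest signals, the 5 smallest p per direction and comparison, their hosts, and up to 6 pathway genes. MIR185 with its host TANGO2 stands outside this rule and was chosen after its values were seen, as were the few genes named to spell out a small count. The genes and lists were chosen with earlier results of these data known. Alternatives were filters on low values, another variance prior, centring, the mean of a gene's probe sets, array weights, a replicate block, fits to the compared groups alone, and leaving out each array. Figures were drawn with matplotlib 3.10.9.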

Additional observations from a re-analysis of the deposited data

How the results depend on the processing

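Under each alternative run, limma called 0 of the microRNA genes fitted in each of the 6 comparisons. The smallest adjusted p of any of them was 0.372, between regions in paced pigs without septum paced array 2. The count above the 25th percentile in every array was 48, and 18 and 6 above the 50th and 75th percentile. With the 25th percentile taken over probe sets of 1 symbol, the count was 38. By the mean over the 12 arrays it was 66 (41.0%, against 75.2% of all probe sets). With the lowest 25% or 50% of probe sets left out, 66 and 27 microRNA genes remained in the fit. The number at an unadjusted p under 0.05 varied from 1 to 13 for pacing in the free wall, 0 to 14 for pacing in the septum, 1 to 12 with regions averaged, 1 to 8 for the difference of effects, 1 to 11 between regions in paced pigs and 2 to 12 in control pigs. The count over all probe sets moved too, for pacing in the free wall from 700 of 13781 to 1871 of 27558.

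In fits between regions and of the difference of effects, arrays of the same treatment and number formed a block, in paced pigs as well as controls. There the regional difference of MIR208B in control pigs was 0.65 (limma adjusted p 0.985) and that of MIR486-1 0.77 (0.985). Between regions in control pigs, the block gave 7 microRNA genes at an unadjusted p under 0.05, against 5 without it. There were 8 against 9 in paced pigs, and 7 against 5 for the difference of effects. Over all probe sets the counts were 1101 against 1136, 1708 against 1669 and 944 against 892 in the same order. In the pacing comparisons the block was the number alone, which joins paced and control arrays of different pigs. With regions averaged, that block left 6 microRNA genes at an unadjusted p under 0.05, against 10. Over all probe sets it left 1235, against 1445. No microRNA gene was called with a block.

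For 67 named differences there were 1304 values under the main fit and the alternatives together. Of these, 13 values of 6 differences changed sign, and none came to an adjusted p under 0.05. For MIR208B the pacing difference was -0.17 to 0.17 in the free wall and -0.20 to 0.15 in the septum when single arrays were left out, negative in the free wall without free wall paced array 3 (-0.165) and positive in the septum without septum paced array 2 (0.145). Its averaged difference was 0.11 with array weights and -0.17 to 0.15 without single arrays, and its difference of effects -0.23 to 0.11. Leaving out 1 array turned the average of its number into the other region's array alone. The averaged values without single arrays therefore also carry the regional difference, for MIR208B 0.65 in control and 0.56 in paced pigs. For MIR486-1 the averaged difference was -0.055 to 0.36 and the regional one in paced pigs -0.34 to 0.047. Beyond that make-up of the averages, the causes were not tested. The same-strand hosts were not run, since the gene table has no strand.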
